A study of Mus musculus with 16 samples.

Results

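The comparison of prenatal lipopolysaccharide (LPS) alone with no LPS set 4 LPS-saline mice against 4 saline-saline mice, 8 of the 16 whole-brain RNA-seq libraries of the series, with 1 library per mouse. The members were chosen by group label, not by any measured value. All mice were C57BL/6 offspring described as male. In LPS-saline the pregnant dam received LPS by intraperitoneal injection on gestation day 16 and the offspring received saline at postnatal day 30. In saline-saline both injections were saline, and no genetic alteration is labelled in either group. Brains were collected at postnatal day 32. The remaining 8 mice, saline-LPS and LPS-LPS, received LPS at postnatal day 30 after prenatal saline or prenatal LPS. The order of the words in a group name, dam first, is a reading of the labels. Litters are not given, so mice of a group may share a dam, and p-values then cover the spread among these animals alone.

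LPS, from the outer membrane of Gram-negative bacteria, is sensed by Toll-like receptor 4, and its injection into pregnant rodents is a standard model of maternal immune activation. MHC class I molecules, a heavy chain paired with beta-2-microglobulin, present peptides from inside the cell to CD8 T cells and are induced by interferons. In the brain they are also known for roles in synapse remodelling, as are the microglial complement proteins C1q and C3. Microglia, the resident macrophages of the brain, read debris and lipids through Trem2 and Fc receptors and digest them in lysosomes.

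The 8 libraries held 25729919 to 38571036 gene counts, with 25553 to 27234 genes detected, and 3 reads stood for at most 0.116 CPM (counts scaled to library size with TMM factors). Of 18875 genes tested, 34 passed the threshold (Benjamini-Hochberg adjusted p under 0.05 in edgeR's quasi-likelihood test), which is 0.18% of all genes. Of these, 28 were higher after prenatal LPS (0.148%) and 6 lower (0.0318%). Their median fold was 1.44, 33 were protein-coding, and in 33 the groups did not overlap (over all genes, 5.17% lay higher and 3.95% lower without overlap). At an unadjusted p under 0.05 (edgeR), 7.75% of all genes were higher and 5.48% lower. Counts of list members at that limit are to be read beside these shares. With the replicate number as a block, an assumed pairing, 409 genes were called, 284 higher (1.5%) and 125 lower (0.662%), all 34 among them. The count fell to 7 without saline-saline 4 and lay between 9 and 18 without any other single library of the 8 except LPS-saline 4, without which it was 123. Outside the comparison, leaving out saline-LPS 1, which enters only the shared estimate of the spread, raised it to 391, and LPS-LPS 1 or LPS-LPS 2 lowered it to 21. Without LPS-LPS 3, in which the Y-linked Ddx3y was at 0 CPM against 35.6 to 68.2 CPM in the other 15 libraries, it was 23. Lyz2, C1qb, B2m, H2-Q4, H2-Q6, H2-K1 and H2-D1 were called in all 16 of these fits.

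**Figure D1:**
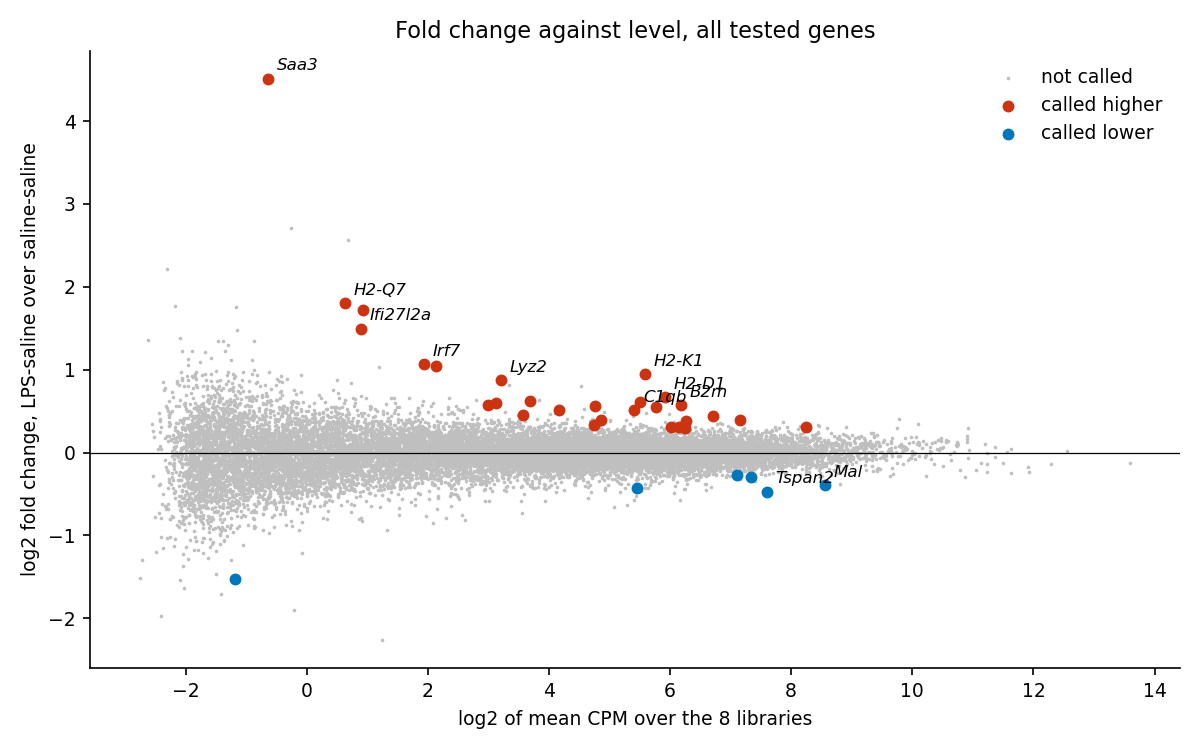
Log2 fold change of LPS-saline over saline-saline (vertical axis) against the log2 mean CPM of the 8 libraries (horizontal axis), 1 point per tested gene. The 28 genes called higher (red) spread from Saa3 at the top left to Rpl13 at the right, and of the 6 called lower (blue) Tspan2 and Mal are named.

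Promoter sequence is shown for genes of both directions whose measured levels are given below: the class I genes B2m, H2-K1 and H2-Q6, the lysosomal protease gene Ctss and the myelin gene Mal. Each line is the 250 bases before the RefSeq start site (GRCm38.p6). Capitals mark matches to a fixed pattern for the interferon-stimulated response element or to the NF-kB motif, each searched on both strands.
B2m, chr2:122147437-122147686, + strand: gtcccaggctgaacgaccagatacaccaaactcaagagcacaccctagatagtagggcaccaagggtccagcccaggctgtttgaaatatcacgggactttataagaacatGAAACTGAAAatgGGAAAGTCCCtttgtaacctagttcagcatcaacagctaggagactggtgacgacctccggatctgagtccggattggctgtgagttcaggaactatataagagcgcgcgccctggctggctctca
H2-K1, chr17:34000348-34000597, - strand: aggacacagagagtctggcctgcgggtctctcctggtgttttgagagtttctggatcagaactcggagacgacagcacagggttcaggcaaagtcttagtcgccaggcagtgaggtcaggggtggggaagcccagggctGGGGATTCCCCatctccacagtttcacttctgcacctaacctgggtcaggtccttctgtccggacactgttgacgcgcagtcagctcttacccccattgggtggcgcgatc
H2-Q6, chr17:35424600-35424849, + strand: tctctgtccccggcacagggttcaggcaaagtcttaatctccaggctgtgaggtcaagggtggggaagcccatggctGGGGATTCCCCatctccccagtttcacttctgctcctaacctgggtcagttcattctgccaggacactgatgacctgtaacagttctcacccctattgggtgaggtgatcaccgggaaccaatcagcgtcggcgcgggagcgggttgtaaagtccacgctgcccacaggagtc
Ctss, chr3:95526536-95526785, + strand: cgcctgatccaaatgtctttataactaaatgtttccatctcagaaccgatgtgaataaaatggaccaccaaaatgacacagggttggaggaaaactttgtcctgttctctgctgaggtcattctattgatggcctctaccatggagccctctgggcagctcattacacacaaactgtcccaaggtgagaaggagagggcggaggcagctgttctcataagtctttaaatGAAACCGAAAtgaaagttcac
Mal, chr2:127656696-127656945, - strand: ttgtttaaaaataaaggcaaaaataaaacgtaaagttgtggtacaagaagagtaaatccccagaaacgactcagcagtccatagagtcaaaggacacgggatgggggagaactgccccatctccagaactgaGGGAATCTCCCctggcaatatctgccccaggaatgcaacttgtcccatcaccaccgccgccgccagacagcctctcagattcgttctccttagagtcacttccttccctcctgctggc
In B2m the response element GAAACTGAAA began 139 bases and the NF-kB match GGAAAGTCCC 126 bases before the start, without overlap. In Ctss the response element GAAACCGAAA began 21 bases before it. The capitals of H2-K1, H2-Q6 and Mal are each a pair of NF-kB matches offset by 1 base. Class I promoters are near copies of each other, so their matches are not independent.

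Windows of 300 bases (250 before to 50 after a start) were at hand for 25 of the 28 genes called higher and 5 of the 6 called lower. Matches to the fixed pattern searched for the response element lay in 4 of the 25 (B2m, Ctss, Ifitm3 and Saa3) and in 3.99% of 27025 genes. Variants of the element outside that pattern were not searched. Windows without a match, those of H2-K1 and H2-Q6 among them, are therefore not shown to lack the element. NF-kB matches lay in 9 of the 25, of which 6 are class I genes, and in 9.55% of genes. The gamma-activated site TTCNNNGAA lay in 2 of the 25 and 9.55% of genes, and the PU.1 word GAGGAAGT in 2 of the 25 and 3.69%. These are descriptions of letters, not of factor binding.

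Genes of MHC class I rose after prenatal LPS. H2-K1, a classical class I heavy chain (GRCm38 chromosome 17, 33996017 to 34000347), was at 31.9, 38.1, 30.6 and 31.3 CPM in saline-saline 1 to 4 and at 75.9, 73.9, 53.8 and 50.5 CPM in LPS-saline 1 to 4. Every LPS-saline library lay above every saline-saline library, and the first pair of LPS-saline libraries above the second. The rise was 0.95 ± 0.13 on the log2 scale (edgeR, adjusted p = 0.00388). H2-D1, the other classical heavy chain of this strain (chromosome 17, 35262730 to 35267499), was at 40.6, 45.2, 45.6 and 55.4 CPM against 80.4, 74.2, 68.2 and 74.3 CPM after prenatal LPS. It rose by 0.67 ± 0.09 (edgeR, adjusted p = 0.00126), with no overlap. B2m, the light chain shared by all class I molecules (chromosome 2, 122147686 to 122153083), was at 60.2, 60.6, 54.9 and 57.5 CPM against 93.8, 92.0, 83.96 and 77.1 CPM. It rose by 0.57 ± 0.07 (edgeR, adjusted p = 0.000929), and again the groups did not overlap.

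Of the nonclassical H2-Q genes, H2-Q4 stood at 2.51 to 3.31 CPM in saline-saline and 4.48 to 7.19 CPM in LPS-saline, H2-Q6 at 0.481 to 1.22 against 2.20 to 3.58 CPM, and H2-Q7 at 0.450 to 0.971 against 1.30 to 3.42 CPM. The 3 genes rose by 1.05 ± 0.15, 1.72 ± 0.26 and 1.81 ± 0.29 on the log2 scale (edgeR, adjusted p = 0.00371, 0.00388 and 0.00637). H2-Q6 and H2-Q7 are near-identical in sequence, and H2-Q4 is related to them. Reads with several best alignments were kept out of gene counts, so the split between these genes is uncertain, above all between H2-Q6 and H2-Q7. Of 20 listed class I genes 15 were tested, 6 rose (7 with the replicate block), 9 were higher at an unadjusted p under 0.05 (7.75% of all genes) and 0 lower. The list's median log2 difference was 0.37, against -0.0027 over all genes. The list's summed level was 176.9 to 191.1 CPM in saline-saline and 258.5 to 312 CPM in LPS-saline. Leaving out any 1 of the 16 libraries gave 5 to 7 called members.

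The H2 class I genes share an interval with other genes, Tap2 of peptide loading among them. Between positions 33996017 and 37274484 of chromosome 17, 25 tested genes carry an H2 symbol, class II genes such as H2-DMa included. Of these, 5 were called, and the median log2 difference was 0.21. The 98 other tested genes of that interval had 0 called (edgeR, adjusted p under 0.05) and a median of 0.07. With 0.18% of all genes called, 0 of 98 does not set these genes apart from the rest. Among 14 genes of peptide loading and the immunoproteasome, which cut and carry the peptides that class I presents, 0 were called (1 with the block) and 5 were higher at an unadjusted p under 0.05. Their median was 0.17. Psme1, an activator subunit of the proteasome, was at 24.5 to 30.6 CPM against 32.9 to 35.0 CPM (log2 0.28 ± 0.08, edgeR adjusted p = 0.0933, and 0.0403 with the replicate block). Tap2, a subunit of the peptide transporter, was at 3.11 to 3.95 against 4.44 to 5.31 CPM (0.44 ± 0.12, edgeR adjusted p = 0.103). Both sets of libraries were apart without passing the test.

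**Figure D2:**
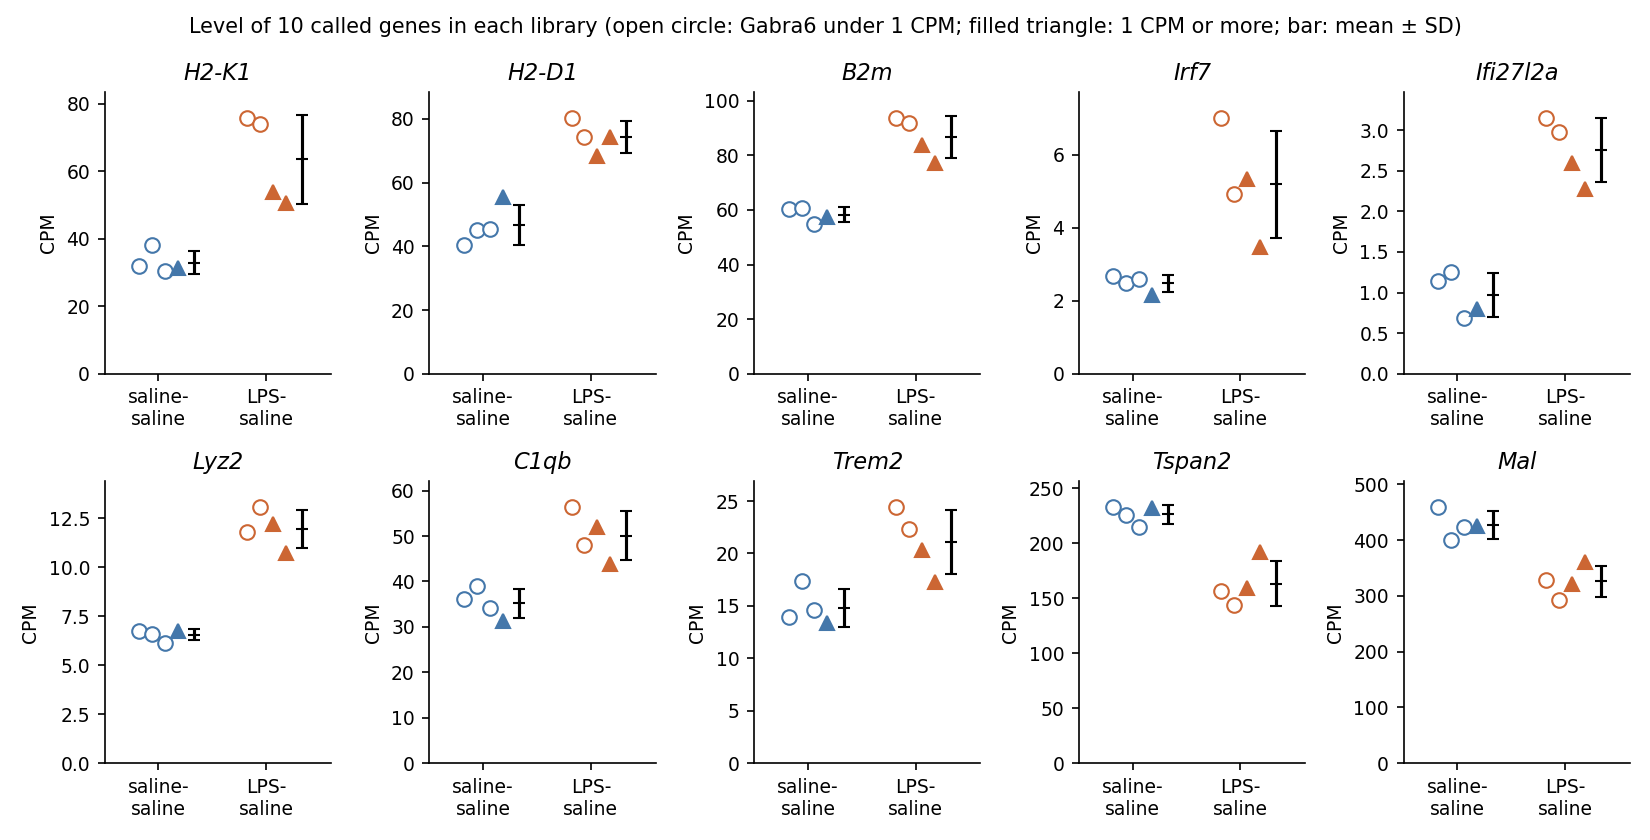
CPM of 10 called genes in each library, with saline-saline on the left and LPS-saline on the right of each panel, libraries 1 to 4 from left to right and the mean ± SD of 4 mice as a black bar. H2-K1 lies at 30.6 to 38.1 CPM in saline-saline and 50.5 to 75.9 CPM in LPS-saline, and Trem2 is the panel in which the groups overlap.

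Interferon-stimulated genes rose in part. Ifi27l2a, an interferon-induced gene of unsettled function, was at 1.15, 1.25, 0.693 and 0.803 CPM in saline-saline and 3.15, 2.98, 2.60 and 2.28 CPM in LPS-saline (log2 1.5 ± 0.24, edgeR adjusted p = 0.00637). Irf7, the transcription factor that amplifies type I interferon production, was at 2.67, 2.48, 2.61 and 2.15 CPM against 7.02, 4.92, 5.33 and 3.48 CPM (1.06 ± 0.19, edgeR adjusted p = 0.0258). In both genes all 4 exposed mice were above all 4 controls. Ifitm3, a membrane protein that restricts virus entry, was at 9.09 to 10.9 against 13.4 to 17.6 CPM (0.62 ± 0.12, adjusted p = 0.0401), and Ifi27 at 20.2 to 22.7 against 27.2 to 39.2 CPM (0.56 ± 0.11, adjusted p = 0.0365).

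Of 61 tested interferon-stimulated genes these 4 rose (8 with the replicate block), 13 were higher and 0 lower at an unadjusted p under 0.05, and the median was 0.21. The list's summed levels overlapped, at 497.7 to 554 CPM and 526.5 to 606.2 CPM. The count of 4 became 0 without saline-saline 4, 1 without saline-saline 1, 2 or 3 or LPS-saline 1 or 3, 2 without LPS-saline 2, LPS-LPS 2 or LPS-LPS 3, 6 without LPS-saline 4 and 8 without saline-LPS 1. Ifi27l2a alone kept its call in 15 of the 16 fits, Irf7 in 10.

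Some microglial and phagocyte genes rose. Lyz2, the lysozyme of myeloid cells (chromosome 10, 117277331 to 117282321), was at 6.73, 6.60, 6.13 and 6.75 CPM in saline-saline and 11.8, 13.1, 12.2 and 10.7 CPM in LPS-saline. Its groups were far apart relative to the spread within them (log2 0.87 ± 0.11, edgeR adjusted p = 0.000929). Ctss, a lysosomal protease of microglia, was at 35.6, 43.7, 32.2 and 32.5 CPM against 62.3, 55.3, 55.0 and 47.6 CPM (0.61 ± 0.12, edgeR adjusted p = 0.0389). Of 31 lysosome and activation genes those 2 rose (9 with the block). At an unadjusted p under 0.05, 18 were higher (7.75% of all genes) and 2 lower (5.48%), and the median was 0.18. Their summed level was 3966 to 4435 CPM against 4599 to 5365 CPM. The count became 1, Lyz2, without saline-saline 1, 3 or 4, LPS-saline 1, 2 or 3, saline-LPS 4 or LPS-LPS 1 or 2, and 7 without LPS-saline 4 or saline-LPS 1.

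Trem2, the lipid receptor of microglia, was at 13.9, 17.4, 14.6 and 13.4 CPM against 24.4, 22.4, 20.3 and 17.3 CPM. It rose by 0.51 ± 0.10 (edgeR, adjusted p = 0.0330) and is the called gene in which the groups overlapped, saline-saline 2 standing above LPS-saline 4. Fcgr3, an Fc receptor for immunoglobulin G, was at 6.21 to 8.09 against 8.65 to 11.3 CPM (0.59 ± 0.11, edgeR adjusted p = 0.0268). Pld4, a lysosomal nuclease of microglia, was at 5.88 to 6.72 against 7.61 to 10.8 CPM (0.58 ± 0.11, edgeR adjusted p = 0.0330). Of 17 genes of Trem2, Tyrobp and Fc receptor signalling, Trem2 and Fcgr3 rose (6 with the block), 9 were higher and 0 lower at an unadjusted p under 0.05, and the median was 0.30. The list's summed levels overlapped, at 95.1 to 120.8 CPM and 111.2 to 137 CPM. Neither was called without saline-saline 1, 3 or 4 or LPS-saline 1, 2 or 3, and 5 members were called without saline-LPS 1.

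Genes for 2 of the C1q chains, which open the classical complement cascade and tag synapses for microglia, rose. C1qa was at 44.2, 51.3, 42.3 and 40.1 CPM against 76.7, 62.3, 64.8 and 55.8 CPM (log2 0.54 ± 0.09, edgeR adjusted p = 0.0207). C1qb was at 36.0, 39.0, 34.2 and 31.4 CPM against 56.4, 48.1, 51.9 and 43.7 CPM (0.51 ± 0.08, edgeR adjusted p = 0.00511). Neither gene's groups overlapped. C1qc, the remaining chain, was at 39.4, 49.4, 39.2 and 34.9 CPM against 67.7, 57.0, 54.3 and 47.4 CPM, with overlap (0.48 ± 0.11, edgeR adjusted p = 0.0640, and 0.00856 with the block); it lies outside the rule for named genes. Of 23 complement genes C1qa and C1qb rose (5 with the block). At an unadjusted p under 0.05, 11 were higher (7.75% of all genes) and 1 lower (5.48%), and the median was 0.18. The list's summed levels overlapped, at 838.5 to 964.7 CPM in saline-saline and 940 to 1148 CPM in LPS-saline. C1qb remained called whichever library was left out. C1qa lost its call without saline-saline 1, 3 or 4 or LPS-saline 1 or 3.

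Genes that mark microglia at rest did not pass the test. Of 22 homeostatic microglia genes 0 were called (edgeR), 5 were higher and 1 lower at an unadjusted p under 0.05, and the median was 0.13. Aif1, the calcium-binding protein Iba1, was at 3.34 to 4.30 against 4.29 to 5.97 CPM (0.37 ± 0.14, edgeR adjusted p = 0.232). Siglech, a microglial lectin, was at 8.13 to 10.9 against 10.4 to 12.8 CPM (0.29 ± 0.11, edgeR adjusted p = 0.239). The summed homeostatic level, 279.6 to 392.8 CPM against 309.5 to 376.8 CPM, overlapped. Of 16 MHC class II and border macrophage genes 0 were called and 0 passed an unadjusted p under 0.05, with a median of 0.15. In bulk brain RNA, more cells of a type and more RNA per cell cannot be told apart. The difference between the activation and the homeostatic list was not tested.

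Blood-borne cells were sought with 3 lists. Of 15 monocyte and neutrophil genes 7 were tested, 0 were called, 3 were higher at an unadjusted p under 0.05, and all 7 had a difference above 0, with a median of 0.85. Their summed level was 5.33, 9.43, 9.97 and 8.26 CPM in saline-saline 3, 2, 1 and 4 and 11.97, 15.9, 10.1 and 12.2 CPM in LPS-saline 1 to 4, without overlap. Ccr2, the chemokine receptor of inflammatory monocytes, was at 0.161 to 0.294 against 0.282 to 1.00 CPM (1.29 ± 0.45, edgeR adjusted p = 0.199). Ltf, the lactoferrin of neutrophil granules, was at 0.277 to 0.643 against 0.339 to 1.54 CPM (0.93 ± 0.41, edgeR adjusted p = 0.324). Of 21 lymphocyte genes 7 were tested and 0 called, with sums of 13.4 to 18.0 and 15.6 to 19.9 CPM. Haemoglobin and other red cell genes summed to 30.5 to 117.3 CPM against 16.7 to 110.3 CPM. The part of residual blood in any result was not tested.

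Among genes of LPS sensing and the acute phase, Saa3, an acute-phase serum amyloid also made by macrophages, was the called gene of 20 tested. It had 7 counts in saline-saline together, at 0.134, 0, 0.0555 and 0 CPM, and 163 counts in LPS-saline, at 0.508, 0.518, 2.96 and 0.888 CPM. Counts of 0 allow up to 0.0896 CPM (saline-saline 2) and 0.0964 CPM (saline-saline 4), taking 3 reads as the limit for counting error alone. LPS-saline 3 held most of the signal, and without it Saa3 was not called (edgeR, main adjusted p = 0.0389, at most 0.150 over the 8 libraries left out in turn). The call was also lost without any 1 saline-saline library and, by a small margin, without saline-LPS 2, 3 or 4 or LPS-LPS 1, 2 or 4. Lcn2, an acute-phase protein of astrocytes and neutrophils, was at 0.111 to 0.478 against 0.479 to 1.19 CPM (1.34 ± 0.39, edgeR adjusted p = 0.122). Tlr4, the LPS receptor, was at 0.868 to 1.25 against 1.30 to 1.74 CPM (0.44 ± 0.25, edgeR adjusted p = 0.473).

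The classical cytokines of an acute LPS response were near the floor of counting. Il1b had 22 counts in the 4 saline-saline libraries and 25 in the 4 LPS-saline libraries, Tnf 9 and 5, and Il6 3 and 4, and all 3 were too low to test. Of 18 tested cytokine and chemokine genes 0 were called (1 with the block). Mif, a macrophage cytokine that neurons also express, was at 103 to 112 against 120 to 131 CPM (0.23 ± 0.05, edgeR adjusted p = 0.0658, and 0.0260 with the block). After correction for GC content and length the difference of Mif was 0.11 (adjusted p = 0.476). Il34, a neuronal ligand of the microglial receptor Csf1r, was at 50.5 to 55.9 against 54.2 to 61.0 CPM (0.18 ± 0.06, edgeR adjusted p = 0.178).

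Astrocyte genes did not pass the test. Gfap, their intermediate filament, was at 294.8, 283.9, 280.4 and 274.2 CPM in saline-saline and 377.4, 308.7, 341.3 and 327.7 CPM in LPS-saline, with no overlap (0.26 ± 0.07, edgeR adjusted p = 0.101, and 0.0242 with the block). Of 23 reactive astrocyte genes 0 were called (1 with the block). At an unadjusted p under 0.05, 6 were higher (7.75% of all genes) and 0 lower, and the median was 0.15. The list's summed level, which includes Gfap, was 527.4 to 553.3 CPM against 564.3 to 640.5 CPM, without overlap. Homeostatic astrocyte genes had 0 called of 19, 4 lower at an unadjusted p under 0.05 and a median of -0.03. Slc1a2, the main glutamate transporter, was at 2059 to 2593 against 1824 to 2062 CPM (-0.21 ± 0.07, edgeR adjusted p = 0.212). The groups of this transporter met at their edges.

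Oligodendrocyte genes included the myelin genes that fell. Tspan2, a tetraspanin of myelin (chromosome 3, 102734529 to 102801513), was at 233, 226, 215 and 232 CPM in saline-saline and 157, 144, 159 and 192 CPM in LPS-saline. It fell by 0.47 ± 0.08 on the log2 scale (edgeR, adjusted p = 0.0258), without overlap. Mal, a proteolipid that sorts cargo to the myelin membrane (chromosome 2, 127633226 to 127656695), was at 459, 400, 423 and 424 CPM against 329, 292, 321 and 361 CPM. It fell by 0.39 ± 0.08 (edgeR, adjusted p = 0.0427), also without overlap. LPS-saline 4 was the closest to the controls in both.

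Of 34 myelin and mature oligodendrocyte genes these 2 fell (8 with the block), 17 were lower at an unadjusted p under 0.05 (5.48% of all genes) and 0 higher. The difference was below 0 in 32 of 34, against 50.7% of all genes, with a median of -0.23. The list's summed levels overlapped, at 13126 to 16065 CPM in saline-saline and 11733 to 15070 CPM in LPS-saline. Mbp, a major myelin protein gene named here after its value was seen, had a difference of 0.02, so the list was not uniform. The count of 2 became 0 without saline-saline 1, 2 or 4 or LPS-saline 1, 2 or 3, 1 without saline-saline 3 or any 1 LPS-LPS library, and 5 without LPS-saline 4 or saline-LPS 1. Of 20 genes of precursors and newly formed oligodendrocytes 0 were called (2 lower with the block), 8 were lower and 1 higher at an unadjusted p under 0.05, with a median of -0.15. Enpp6, which marks newly forming oligodendrocytes, was at 20.4, 19.6, 19.8 and 20.5 CPM against 13.5, 12.9, 13.2 and 18.2 CPM (-0.48 ± 0.11, edgeR adjusted p = 0.0640, and 0.00856 with the block). Tns3, also of newly forming cells, was at 89.9 to 102 against 73.4 to 88.2 CPM (-0.24 ± 0.07, edgeR adjusted p = 0.125, and 0.0486 with the block). Of 22 cholesterol synthesis genes, which supply myelin lipid, 0 were called (1 higher with the block) and the median was -0.05.

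The other genes called lower were Arrdc3, an arrestin-domain adaptor of receptor trafficking, Secisbp2l, which resembles a selenoprotein synthesis factor, and Plekha1, a phosphoinositide-binding adaptor. Arrdc3 was at 46.4 to 53.1 against 32.6 to 43.0 CPM and fell by 0.43 ± 0.08 (edgeR, adjusted p = 0.0283). Secisbp2l was at 163 to 188 against 134 to 153 CPM and fell by 0.29 ± 0.06 (edgeR, adjusted p = 0.0428). Plekha1 was at 144 to 159 against 118 to 129 CPM and fell by 0.27 ± 0.05 (edgeR, adjusted p = 0.0293). No group overlapped in these 3 genes.

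Some meningeal fibroblast genes rose. Islr, a secreted fibroblast protein, was at 26.1, 24.2, 25.7 and 24.6 CPM against 33.3, 30.6, 38.2 and 30.2 CPM (log2 0.39 ± 0.08, edgeR adjusted p = 0.0389). Pcolce, which helps process procollagen, was at 8.60 to 11.6 against 12.5 to 14.5 CPM (0.45 ± 0.09, edgeR adjusted p = 0.0460). Of 25 such genes these 2 rose (8 with the block), 14 were higher and 0 lower at an unadjusted p under 0.05 and the median was 0.29. The summed level was 574.2 to 629.4 CPM against 634.7 to 722.1 CPM. Over the 16 fits with 1 library left out, 0 to 8 were called: 0 without saline-saline 2, 3 or 4, LPS-saline 1 or 3 or LPS-LPS 1 or 4, and 8 without saline-LPS 1. How much meninges was taken with each brain is not given, and its part in these values was not tested.

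Of 28 genes of the blood-brain barrier endothelium 0 were called (2 lower with the block), with a median of -0.09. Mfsd2a, the barrier's lipid transporter, was at 18.7 to 23.7 against 15.4 to 19.4 CPM (-0.30 ± 0.11, edgeR adjusted p = 0.238, and 0.0403 with the block). Egfl7, a secreted endothelial factor, was at 9.93 to 15.3 against 13.1 to 19.4 CPM (0.32 ± 0.13, edgeR adjusted p = 0.288). Both genes' groups overlapped, and their signs were opposite. Of 13 pericyte and smooth muscle genes 0 were called, with a median of -0.18. Of 19 choroid plexus genes 0 were called (1 higher with the block), with a median of -0.18. Slc13a4, a sulphate transporter of choroid plexus and meninges, was at 15.8 to 18.4 against 20.1 to 24.4 CPM (0.36 ± 0.09, edgeR adjusted p = 0.0716, and 0.0249 with the block).

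Housekeeping programmes differed by small amounts. Of 80 cytosolic ribosomal protein genes 1 rose, Rpl13 of the large subunit, at 256 to 290 against 319 to 356 CPM (0.31 ± 0.06, edgeR adjusted p = 0.0365). With the block 28 were called, and without saline-LPS 1 32 were. Of the 80, 53 were higher and 0 lower at an unadjusted p under 0.05, 75 had a difference above 0 (49.3% of all genes) and the median was 0.19. These genes have processed copies elsewhere in the genome, so single counts are uncertain. Rpl13 was not called without saline-saline 2, 3 or 4, LPS-saline 1, 2 or 3, or LPS-LPS 1 or 2, and 4 members were called without LPS-saline 4.

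Nuclear genes of the respiratory chain had 0 called of 75 (6 higher with the block), 25 higher at an unadjusted p under 0.05 and a median of 0.11. The 12 tested genes that the mitochondrial genome encodes had the opposite sign: 0 were called (2 lower with the block), 7 were lower at an unadjusted p under 0.05, all 12 had a difference below 0 and the median was -0.20. Mitochondrial genes took 3.79, 3.55, 3.21 and 3.57% of counts in saline-saline 1 to 4 and 3.22, 3.09, 3.21 and 3.17% in LPS-saline 1 to 4. Saline-saline 3 lay level with the exposed mice. mt-Nd5, a subunit of complex I, was at 1896 to 2199 against 1594 to 1802 CPM (-0.29 ± 0.07, edgeR adjusted p = 0.0658, and 0.0145 with the block).

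Glucocorticoid-responsive genes had 0 called of 19 (edgeR, 2 lower with the block) and a median of -0.26. At an unadjusted p under 0.05, 8 were lower (5.48% of all genes) and 0 higher. The list's summed levels overlapped, at 908.6 to 1174 CPM in saline-saline and 830.5 to 914.2 CPM in LPS-saline. Tsc22d3, the glucocorticoid-induced leucine zipper, was at 83.5, 81.6, 100.5 and 81.8 CPM against 67.6, 65.4, 72.5 and 73.1 CPM (-0.32 ± 0.08, edgeR adjusted p = 0.0663, and 0.0372 with the block). Pdk4, a kinase that restrains pyruvate oxidation, was at 6.43 to 8.42 against 4.95 to 6.31 CPM (-0.40 ± 0.12, edgeR adjusted p = 0.132, and 0.0485 with the block). Both genes' groups were apart.

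Synaptic, receptor and interneuron lists had medians near 0. They were 0.02 for 28 pre- and postsynaptic scaffold genes, -0.03 for 22 glutamate receptor subunits, -0.05 for 13 GABA-A receptor subunits and -0.03 for 24 interneuron genes, with 0 called in each. With the block 1 GABA-A subunit and 1 interneuron gene were called higher. Of the interneuron genes 4 were higher and 3 lower at an unadjusted p under 0.05. Cck, a neuropeptide of interneurons and cortical pyramidal cells, was at 230 to 266 against 276 to 343 CPM (0.32 ± 0.07, edgeR adjusted p = 0.0653, and 0.0111 with the block). Erbb4, a neuregulin receptor of interneurons, was at 55.4 to 77.01 against 51.1 to 58.8 CPM (-0.27 ± 0.08, edgeR adjusted p = 0.116), with overlap. Of 14 hypothalamic neuropeptide genes 0 were called (1 higher with the block), 4 were higher at an unadjusted p under 0.05 and the median was 0.31. Their summed level was 64.8 to 91.7 CPM against 95.7 to 108.2 CPM, without overlap. Trh, the thyrotropin-releasing hormone, was at 12.5 to 15.9 against 16.3 to 20.3 CPM (0.35 ± 0.09, edgeR adjusted p = 0.0817, and 0.0403 with the block).

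Regional markers gave no calls in the main fit over all 16 libraries. Thalamus and midbrain genes had 0 called of 12, a median of -0.28 and summed levels of 345.6 to 402.7 CPM against 276.9 to 334.9 CPM, without overlap. Plekhg1, a marker of thalamus in this list, was at 33.6 to 48.2 against 21.1 to 29.3 CPM (-0.65 ± 0.22, edgeR adjusted p = 0.208, and 0.0446 in the 8 libraries alone). Th, the tyrosine hydroxylase of midbrain dopamine neurons, had the opposite sign, at 19.6 to 25.3 against 24.1 to 32.3 CPM with overlap (0.39 ± 0.12, edgeR adjusted p = 0.172, and 0.0490 in the 8 libraries alone). Of 9 hippocampal genes 0 were called and the median was -0.20. Prox1, the transcription factor of dentate granule cells, was at 25.1 to 33.3 against 17.4 to 23.6 CPM (-0.55 ± 0.17, edgeR adjusted p = 0.153, and 0.0198 in the 8 libraries alone). Dsp, also of the hippocampal list, differed by -0.79 ± 0.33 (edgeR adjusted p = 0.322, and 0.0107 in the 8 libraries alone). Cortical and striatal lists had medians of 0.07 and -0.07 with 0 called. Whether the regions made up unequal shares of the brains was not tested.

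**Figure D3:**
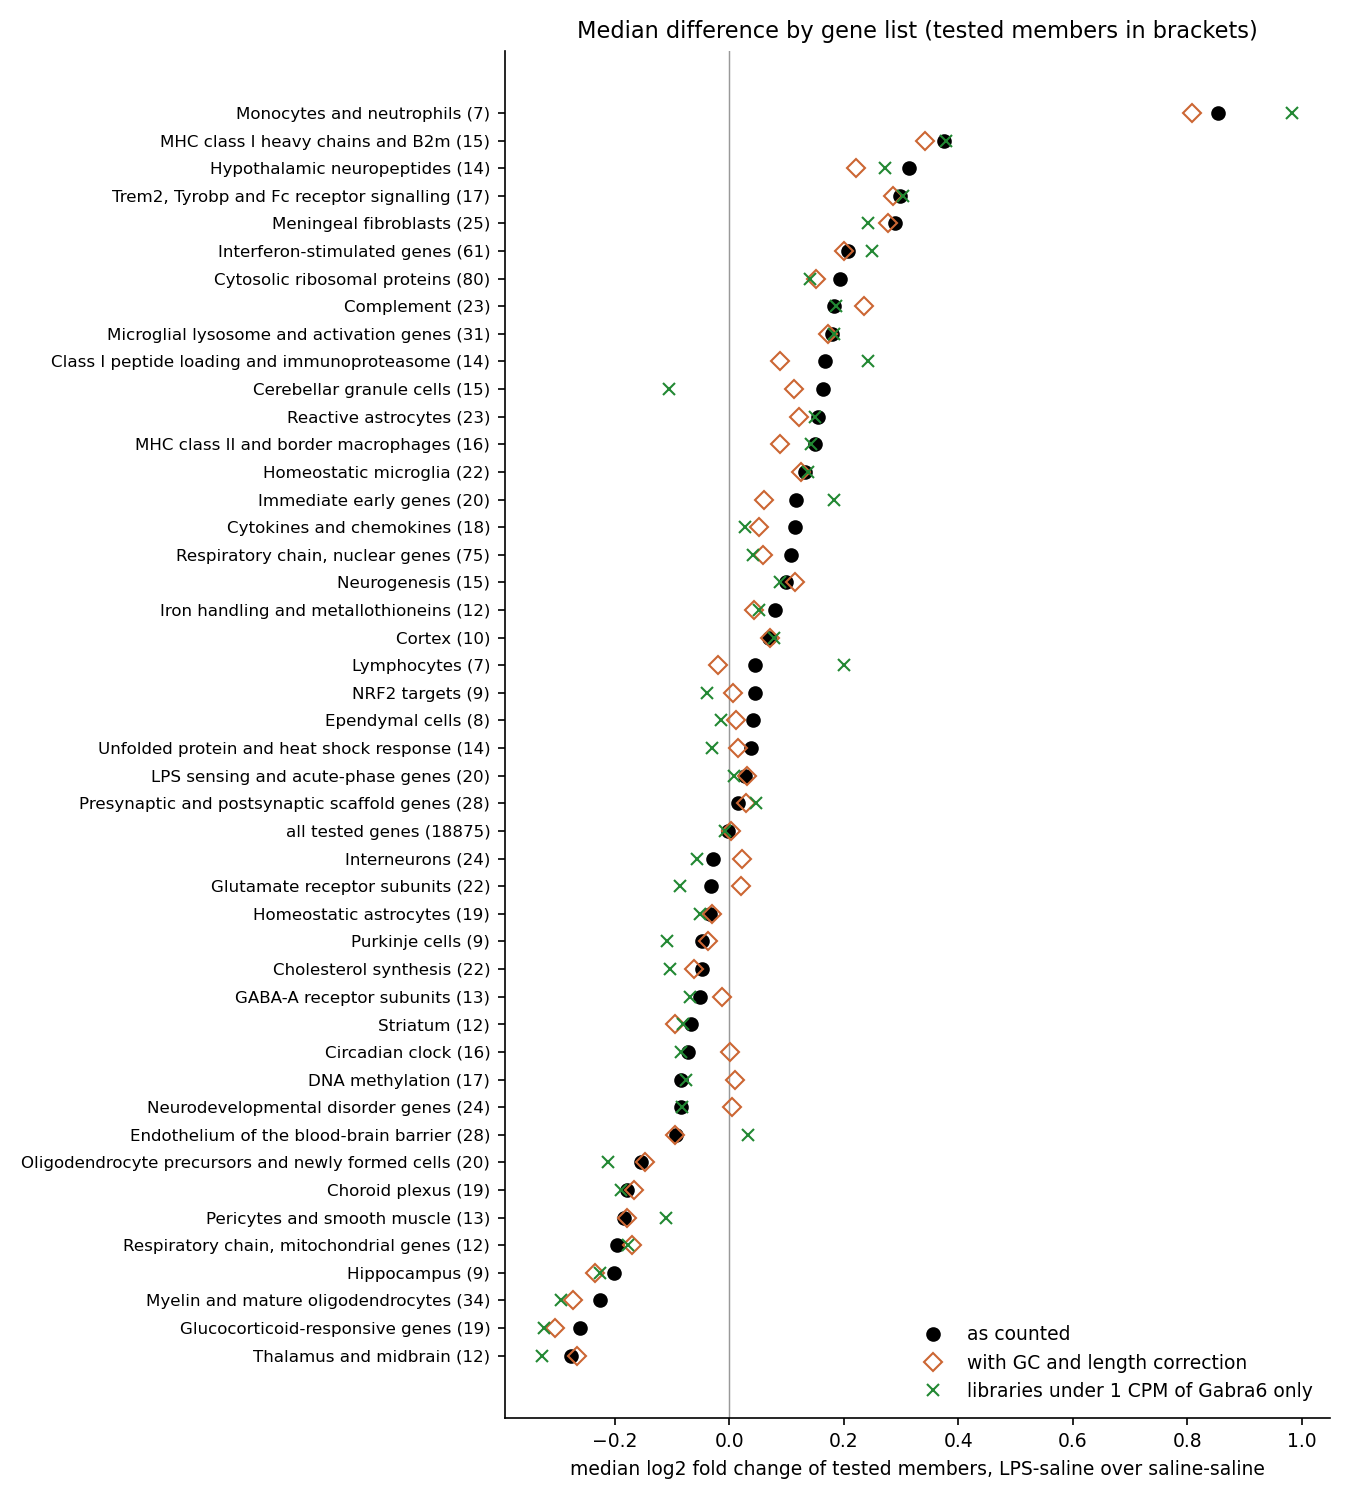
Median log2 difference of the tested members of each gene list (tested members in brackets), as counted (black), after correction for GC content and length (orange) and in the libraries under 1 CPM of Gabra6 (green). Class I stays near 0.37 as counted and 0.34 after correction, while neurodevelopmental disorder genes move from -0.08 to near 0.

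Cerebellar content was read from Gabra6, a GABA-A receptor subunit of cerebellar granule cells. It was at 0.134, 0.0597, 0.277 and 44.4 CPM in saline-saline 1 to 4 and 0.0678, 0.104, 17.03 and 52.7 CPM in LPS-saline 1 to 4. In 5 of the 8 libraries this marker was thus almost absent although the tissue is labelled whole brain, and both groups held libraries of either kind. On the scale of log2(CPM + 0.1) the groups differed by 1.41 (exact permutation test, two-sided p = 0.8, smallest possible 0.0286). Cbln3, a second granule cell gene, split the libraries likewise, at 0.57 to 0.776 CPM and 19.0 to 102.2 CPM.

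Each subset fit also held the saline-LPS and LPS-LPS libraries on its side of 1 CPM of Gabra6, which enter the filter, scaling and spread. In the contrast of the 5 libraries under 1 CPM of Gabra6 (3 saline-saline, 2 LPS-saline) 12 genes were called, all higher. Of these, 9 were among the 34. Within the 3 others (saline-saline 4 against LPS-saline 3 and 4, the lone control assumed to vary like the rest) 2 genes were called, 1 higher and 1 lower, and 0 of the 34. All 34 genes kept their direction in both sets. In 33 of them the groups do not overlap over the 8 libraries, which all but fixes the direction in any subset. The shared direction is therefore no check on cerebellar content. H2-K1 differed by 1.16 in the first set and 0.75 in the second, H2-D1 by 0.82 and 0.37, H2-Q4 by 1.38 and 0.52, B2m by 0.66 and 0.49, and Lyz2 by 0.94 and 0.78, all on the log2 scale. C1qb differed by 0.52 and 0.62, Tspan2 by -0.58 and -0.39. The 15 granule cell genes had a median of 0.16 over all 8 libraries, -0.10 in the first set and -0.29 in the second, so their direction turned with the libraries used. With Gabra6 as a covariate 515 genes were called (364 higher, 151 lower), the 34 among them.

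Transcript length moved with the groups. The length slope per library, that of its log2 deviation on log2 exonic length, was 0.0037, 0.0188, 0.0204 and 0.0225 in saline-saline and -0.0130, -0.0053, 0.0011 and 0.0109 in LPS-saline. The means differed by -0.0179 (exact permutation test, two-sided p = 0.0571), and by -0.045 (p = 0.0286, the smallest possible, exact) among genes with a mean of at least 1 CPM. Mean transcript length in place of exonic length gave -0.0295 (exact p = 0.0286). Across 18826 genes, not independent of each other, the log2 difference had a Spearman rho of -0.237 with exonic length, and of -0.559 across the 10371 genes of at least 10 CPM. After correction for GC content and length the 2 values were 0.0237 and -0.114.

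In 5 bins of exonic length of near-equal size, from shortest to longest, the median log2 difference was 0.05, 0.06, 0.02, -0.01 and -0.07. At an unadjusted p under 0.05, 12.5% of the shortest bin were higher and 2.66% lower, and in the longest bin 0.903% were higher and 14.4% lower. The 28 genes called higher numbered 13, 9, 5, 1 and 0 in these bins. Their median exonic length was 2068 bases, that of the genes called lower 5510 bases and that of all genes 3827 bases. Whether RNA quality or fragment length differed between the groups was not tested.

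**Figure D4:**
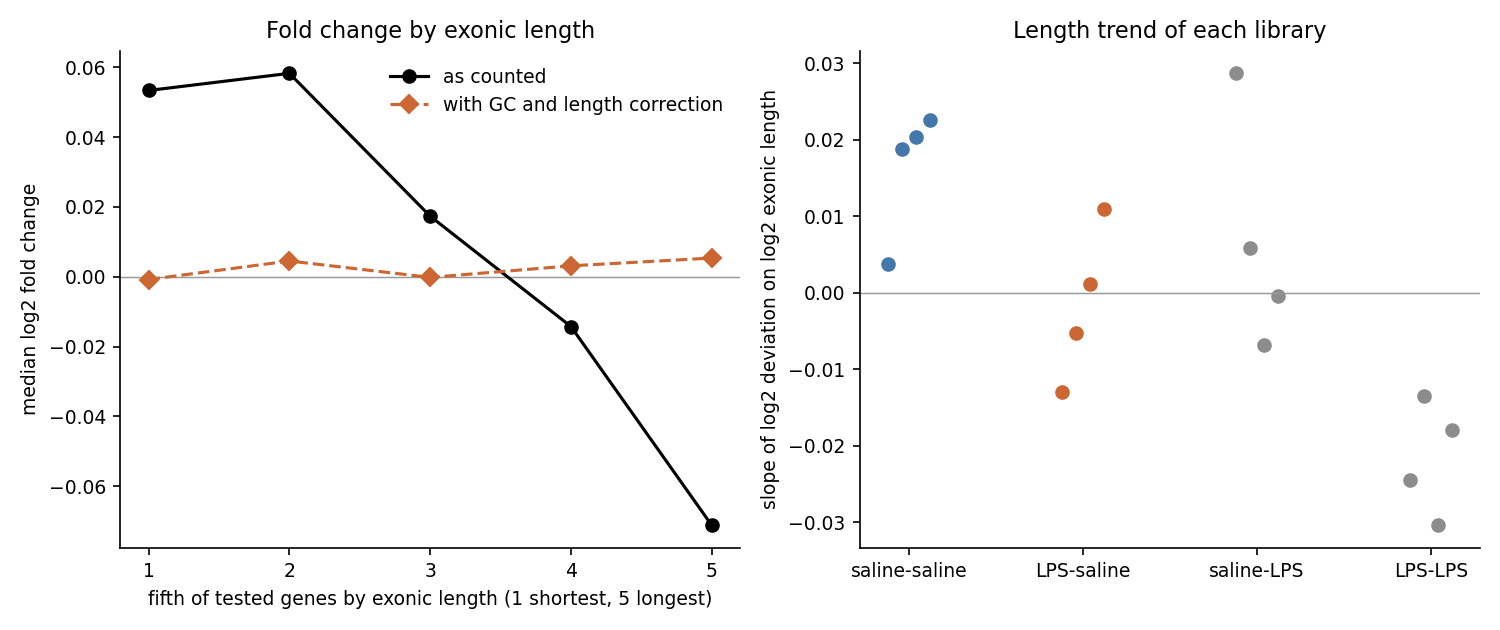
Left, median log2 fold change of LPS-saline over saline-saline in 5 bins of exonic length, as counted and after correction. Right, slope of each library's log2 deviation on log2 exonic length, 1 point per library in the 4 groups. The median runs from 0.05 in the shortest to -0.07 in the longest bin, and 3 of 4 LPS-saline slopes lie below all 4 saline-saline slopes.

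With the correction 17 genes were called, 13 higher (0.0689%) and 4 lower (0.0212%), of which 14 were among the 34, and all 34 kept their direction. With the block and the correction together 105 were called, 57 higher (0.302%) and 48 lower (0.254%), of which 29 were among the 34. The genes H2-Q7, H2-Q6, H2-Q4, H2-D1, H2-K1, Lyz2, C1qa, C1qb, Trem2, Irf7, Ifi27l2a, Pld4, Tspan2 and Mal were called with the correction alone. The difference of B2m was 0.56 where it had been 0.57, but its adjusted p became 0.108, and that of Ctss 0.167. Saa3, Ifitm3, Ifi27, Fcgr3, Islr, Pcolce, Rpl13, Arrdc3, Secisbp2l and Plekha1 also lost their calls, at adjusted p-values of 0.0574 to 0.133. Their differences kept most of their size: Saa3 went from 4.51 to 4.48, Ifitm3 from 0.62 to 0.57, Fcgr3 from 0.59 to 0.54, Arrdc3 from -0.43 to -0.38 and Plekha1 from -0.27 to -0.19. Of the 81 named genes not called, 19 were called with the block and 3 with block and correction together. Corrected medians were 0.34 for class I, 0.20 for interferon-stimulated genes, 0.24 for complement, -0.27 for myelin and -0.30 for glucocorticoid-responsive genes, each of the same sign as before. The ribosomal median went from 0.19 to 0.15 and that of the nuclear respiratory chain from 0.11 to 0.06. Called members with the block, and with block and correction, were 28 and 5 for ribosomal and 6 and 0 for nuclear respiratory genes. They were 9 and 2 for lysosome and activation genes, 6 and 2 for Trem2 and Fc receptor genes and 8 and 5 for meningeal fibroblasts. For class I they were 7 and 7, for interferon-stimulated genes 8 and 8, for complement 5 and 5 and for myelin 8 and 9. Neurodevelopmental disorder genes, whose median exonic length was 12666 bases, had 6 of 24 lower at an unadjusted p under 0.05 and a median of -0.08, which the correction took to 0.0052.

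The remaining genes called higher were Ttc9b, Tpgs1, Pfdn5, Timm13, Mcrs1, Tmem121 and 1110008P14Rik, and Gm37671, a predicted transcript, was called lower. They lie outside the rule for named genes and are named after their values were seen. The first 7 rose by 0.29 to 0.44 on the log2 scale, and with the length correction each kept its sign at an adjusted p of 0.0660 to 0.303. Timm13, an import chaperone of the mitochondrial intermembrane space, was at 64.1 to 70.8 against 78.9 to 87.3 CPM (0.29 ± 0.06, edgeR adjusted p = 0.0389, and 0.303 after correction).

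Prenatal LPS could be read again in the mice given LPS at postnatal day 30, in LPS-LPS against saline-LPS. These groups share no library with the first pair, but both contrasts use 1 estimate of the spread. LPS-LPS and LPS-saline mice may have come from the same dams, as may saline-LPS and saline-saline mice. The second pair is therefore not shown to be an independent repeat of the prenatal exposure. In this second pair 106 genes were called higher (0.562%) and 9 lower (0.0477%). Of the 34 genes 33 had the same direction, and of the genes not called 71.1% did, so a shared direction was common. Of the 34, 20 were called again, 19 higher and 1 lower. Without LPS-LPS 3, in which Ddx3y was at 0 CPM, the second pair's 115 calls fell to 22, the fewest with any 1 library left out. H2-K1 was at 34.8, 35.3, 32.1 and 29.1 CPM in saline-LPS and 77.1, 71.3, 69.6 and 56.0 CPM in LPS-LPS (log2 1.06, edgeR adjusted p = 0.000913). Lyz2 differed by 1.00 (edgeR adjusted p = 7.58e-05), B2m by 0.65 (7.58e-05), C1qb by 0.51 (0.00435) and Tspan2 by -0.38 (0.0401). Gm37671 turned from -1.53 to 0.21. Class I genes had 6 of 15 called in the second pair with a median of 0.37, and myelin genes 1 of 34 with a median of -0.17. The length trend was in the second pair too: slopes were -0.0304 to -0.0135 in LPS-LPS and -0.0069 to 0.0287 in saline-LPS.

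The test of the difference between the 2 pairs, the interaction, called 0 genes (edgeR, adjusted p under 0.05; 402 genes or 2.13% at an unadjusted p under 0.05, and 2 genes by DESeq2). By edgeR the smallest interaction values belonged to Rps28 (adjusted p = 0.887), Gm4673 (adjusted p = 0.887) and Mbd2 (adjusted p = 0.9998). Among the 34, 3 had an unadjusted p under 0.05: H2-Q6 (0.0162), Pcolce (0.0455) and Gm37671 (0.000927). A p that misses the threshold does not show that the pairs are alike: the median standard error of the interaction over the 34 genes was 0.13 on the log2 scale.

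**Figure D5:**
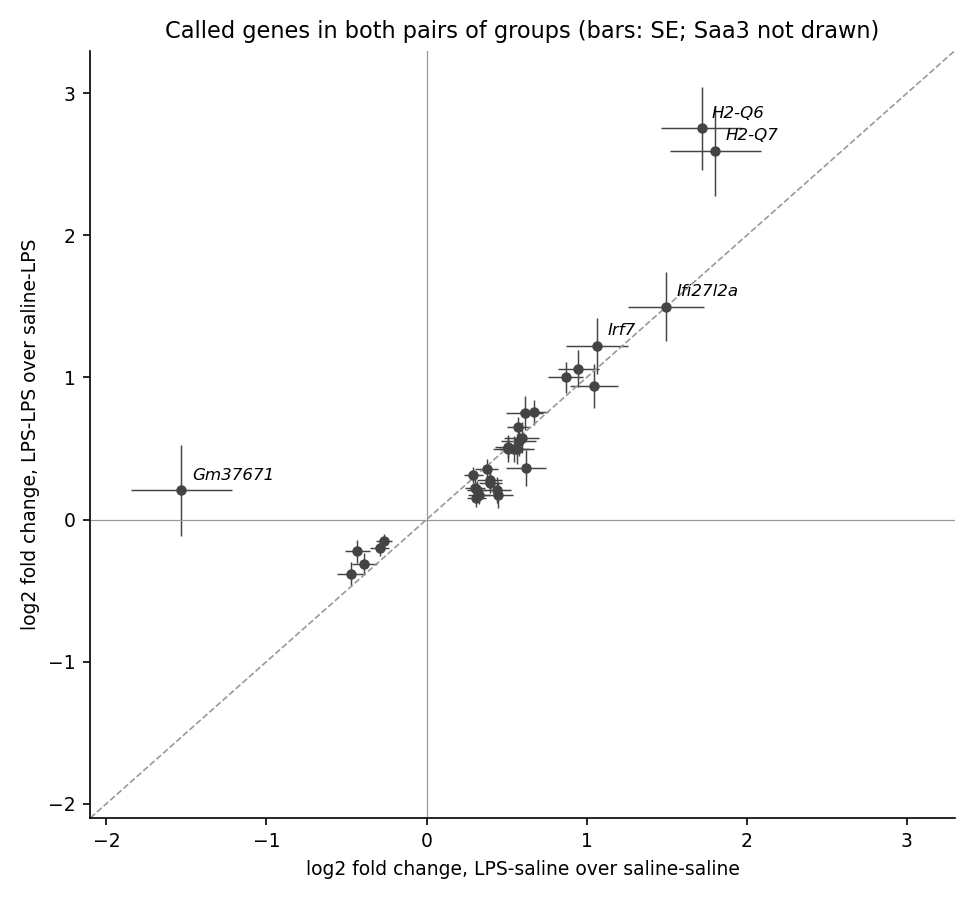
Log2 fold change of 33 called genes (all but Saa3) in LPS-saline over saline-saline (horizontal axis) and in LPS-LPS over saline-LPS (vertical axis), with standard errors as bars and a dashed line of equal values. Points lie along the line except H2-Q6 and H2-Q7 above it and Gm37671, which is at -1.53 and 0.21.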

How the data were processed

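RNA from whole brain was sequenced in 16 mice. The authors deposited raw counts of reads for each Ensembl gene. Per the submitters' processing notes the tools were STAR 2.5.2b and HTSeq 0.11.2, and the build GRCm38. The sources used here do not give the strand setting, annotation release or read filters. If counting ignored strand, reads of antisense or overlapping genes cannot be told apart. The 5 special entries beside the 49671 genes of a file were dropped before scaling and testing. In the 8 libraries 8.38 to 11.1% of counts had no gene, 5.11 to 5.48% were ambiguous and 3.28 to 3.72% were not unique. Symbols, lengths and coordinates came from GENCODE M21 (49412 identifiers matched, 259 not), promoters from RefSeq. Reads have no molecular identifiers, so floors cover counting error only.

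Genes were tested with edgeR 4.0.16 in R 4.3.3 (filterByExpr, TMM, robust quasi-likelihood fit, two-sided) over all 16 libraries, which share 1 estimate of the spread (biological coefficient of variation 10.4%), without a block. No libraries of a group were duplicates (chi-square per degree of freedom 4.79 or more). The correction for GC content and length used a spline of 5 degrees of freedom per library as an offset. Scripts were tested on simulated counts. Replicate numbers come from the labels. Deviations of same-numbered libraries of both groups correlated at 0.243, 0.392, 0.115 and 0.578 over 15230 genes. Each saline-saline library correlated best with its own number, but LPS-saline 1 and 3 did not. The labels do not say what the numbers stand for, so taking them as pairs is an assumption. Over the 4 groups Gabra6 was at 19.5 to 52.7 CPM in libraries numbered 4 and at 0.0375 to 0.104 CPM in those numbered 2. Those numbered 1 (0 to 2.51 CPM) and 3 (0.277 to 70.4 CPM) were mixed. The block is therefore not separate from cerebellar content, and the part of that content in blocked values was not tested. The blocked value is given beside the unblocked where it moves a call or a count. Alternatives were DESeq2 1.42.0, other scaling and filters, the corrections above, subsets by Gabra6, the 8 libraries alone and each library left out.

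Members and lists were chosen with earlier results of these data known. Named genes are, of the called genes whose groups do not overlap and whose mean reaches 1 CPM (predicted genes and pseudogenes aside), the 15 that rose most and the 15 that fell most, up to 4 called members of each list by p, up to 2 members by p of a list without a call, a fixed set (Il1b, Tnf, Il6, Lcn2, Saa3, Gfap, Aif1, Tlr4, Gabra6) and the 3 top genes of the interaction. Of the genes this rule takes, 1 is not reported here.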

Additional observations from a re-analysis of the deposited data

Results flagged for a closer look

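In 19 of 232 groups of 4 libraries checked, 1 library stood far from the other 3 (its gap to the nearest, as a share of the group's range, exceeded Dixon's critical value). Chance alone flags about 1 in 20 such groups. Among called genes, H2-K1 was at 38.1 CPM in saline-saline 2 (group median 31.6), Ifi27 at 20.2 CPM in saline-saline 4 (22.4), Saa3 at 2.96 CPM in LPS-saline 3 (0.703) and Tmem121 at 31.8 CPM in LPS-saline 1 (29.3).

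Saline-saline 4, a library with cerebellar transcripts, stood apart in Gabra6 (44.4 CPM, group median 0.206), in the Purkinje cell genes Itpr1 (558.2, median 388.4) and Rgs8 (198.1, median 122), in Gclm, a glutathione synthesis subunit (59.98, median 48.4), and in the immediate early gene Egr4 (48.2, median 70.9). LPS-saline 4, also with cerebellar transcripts, stood apart in Rgs8 (167.8 CPM, median 115.3), Il34 (54.2, median 60.8) and Enpp6 (18.2, median 13.4). The part of cerebellar content in the last 2 was not tested.

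Of the others, LPS-saline 1 stood apart in the astrocyte receptor Fgfr3 (115.9 CPM, median 96.2), the striatal sodium channel subunit Scn4b (183.3, median 219.7) and the neurogenic factor Eomes (10.9, median 13.1). LPS-saline 3 stood apart in the B-cell gene Cd79b (0.197 CPM, median 0.368) and in Tet1, a 5-methylcytosine oxidase (16.8, median 15.7). Saline-saline 3 stood apart in the red cell anion exchanger Slc4a1 (0.0832 CPM, median 0.650) and in Tsc22d3 (100.5, median 82.6).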

How the results depend on the processing

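The count of 34 genes became 127 with no filter, 409 with the replicate block, 17 with the GC and length correction, 105 with both, 515 with Gabra6 as covariate, 233 in the 8 libraries alone (127 higher, 106 lower), 12 and 2 in the libraries under and over 1 CPM of Gabra6, and 429 with DESeq2 (304 higher, 125 lower). It ranged from 7 to 391 with 1 library left out. The second pair's 115 calls became 178 with no filter, 326 with the replicate block, 41 with the correction, 512 with the covariate and 412 with DESeq2, and 22 to 126 with 1 library left out. The interaction's 0 calls became 2 with DESeq2. The difference in length slope per library, -0.0179, passed its test among genes of at least 1 CPM (-0.045) and by mean transcript length (-0.0295), and ranged from -0.0221 to -0.0141 with 1 library left out. The difference in Gabra6 level per library ranged from -0.0885 (without LPS-saline 4) to 3.29. Signs turned for uncalled genes only: H2-DMa (-0.0893), Zic2 (-0.133) and Hlf (0.0127) in the libraries over 1 CPM of Gabra6, Dynlrb2 (-0.137) in those under it, Itpr1 with the correction (0.0108), with block and correction (0.0160) and without saline-saline 4 (0.0388, lowest -0.215 without LPS-saline 4), and Rgs8 without saline-saline 4 (0.0823, lowest -0.290 without LPS-saline 4). Where a setting itself does not show why a value moved, the cause was not tested. Of the 34 genes, 31 were also called by DESeq2, 34 with the block, 33 in the 8 libraries alone 14 with the correction and 29 with block and correction together. Depth limits genes that rest on few counts, among them Saa3 (7 counts in saline-saline) and the cytokines.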

Other observations

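Several lists not described above had 0 called members in edgeR's test. Over all genes, 7.75% were higher and 5.48% lower at an unadjusted p under 0.05. Of 15 neurogenesis genes 3 were higher and 0 lower at an unadjusted p under 0.05, with a median log2 difference of 0.10. Hes5, a Notch target of neural progenitors, was at 3.15 to 5.69 CPM in saline-saline and 5.39 to 6.48 CPM in LPS-saline (0.47 ± 0.16, edgeR adjusted p = 0.203). Of 14 genes of the unfolded protein and heat shock response 3 were higher and 0 lower at an unadjusted p under 0.05, with a median of 0.04. Ddit3, a transcription factor of that response, was at 18.6 to 21.2 against 22.3 to 24.8 CPM (0.25 ± 0.07, edgeR adjusted p = 0.0866, and 0.0485 with the block).

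Of 17 DNA methylation genes 1 was higher and 2 lower at an unadjusted p under 0.05. Mbd3, a subunit of the NuRD complex, was at 127 to 142 against 145 to 164 CPM (0.21 ± 0.05, edgeR adjusted p = 0.0840, 0.0266 with the block and 0.601 with the length correction), and Tet1 at 16.9 to 19.5 against 15.7 to 16.8 CPM (-0.21 ± 0.08, edgeR adjusted p = 0.216, and 0.697 with that correction). Of 20 immediate early genes 1 was higher at an unadjusted p under 0.05, and of 16 circadian clock genes 1 was lower. Of 12 iron handling and metallothionein genes 1 was higher at an unadjusted p under 0.05, and of 9 NRF2 targets 0 were in either direction. With 7.75% of all genes higher and 5.48% lower, 1 member in lists of this size is near the share over all genes.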
